A study of Homo sapiens with 4 samples.

Results

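The fucosyltransferases of Lewis and H antigen synthesis, together with their relatives FUT10 and FUT11, were described in m6A meRIP-seq peak lists of OE-19 cells. The members were 10 genes of 20046 protein-coding genes in GENCODE version 44, namely FUT1, FUT2, FUT3, FUT4, FUT5, FUT6, FUT7, FUT9, FUT10 and FUT11, and their peaks were those with the summit inside the body of a member gene. The genes were chosen by name, but with the fold enrichment, q, motifs and sharing of their peaks already known from these lists, so those values are given as a description with no test. By this rule 21 of 24607 peaks of replicate 1 and 14 of 19318 peaks of replicate 2 belonged to the members.

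OE-19 is an established cell line of adenocarcinoma of the esophagogastric junction, here cultured with no treatment that the labels name. In meRIP-seq, an antibody against N6-methyladenosine (m6A) enriches the RNA fragments that carry it, and stretches where their reads accumulate are listed as peaks. There were 2 replicates of the m6A immunoprecipitation, with a peak list for each, and 2 replicates of input RNA, which were not analysed here. The labels do not say whether the replicates came from separate cultures. Of 5 epithelial marker genes only CDH1 had an exonic peak, in both lists, whereas KRT8, KRT18, KRT19 and EPCAM had none, and of 4 lymphoid or fibroblast markers only COL1A1 had one, in replicate 1. A peak list gives no expression level, so a missing peak cannot be told apart from a missing transcript.

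Lewis and H antigens are short sugar chains at the ends of glycolipids and glycoproteins, and they are rich on the epithelium of the gastrointestinal tract. The enzymes FUT1 and FUT2 add fucose to the terminal galactose to make H antigens, and FUT3, FUT4, FUT5, FUT6, FUT7 and FUT9 add fucose to the N-acetylglucosamine of the chain to make Lewis structures. m6A is placed on mRNA by the METTL3 and METTL14 complex, mostly at adenosines within short motifs such as GGAC, and it is known to be frequent in long internal exons and around stop codons.

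The sequences below lie under the summits of the H antigen enzymes FUT1 and FUT2 and of FUT4 and FUT9, and they are shown because those summits lay inside coding sequence that differs from that of the other members. Each runs 5′ to 3′ on the strand of the gene in hg38, with the summit at the middle base and the motif GGAC in capitals.
FUT1 replicate 1 (chr19:48750506-48750606, minus strand): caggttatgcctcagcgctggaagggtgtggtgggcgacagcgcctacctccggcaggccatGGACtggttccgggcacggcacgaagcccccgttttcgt
FUT2 replicate 1 (chr19:48703662-48703762, plus strand): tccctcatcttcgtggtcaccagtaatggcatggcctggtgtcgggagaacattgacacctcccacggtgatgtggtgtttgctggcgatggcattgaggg
FUT2 replicate 2 (chr19:48703185-48703285, plus strand): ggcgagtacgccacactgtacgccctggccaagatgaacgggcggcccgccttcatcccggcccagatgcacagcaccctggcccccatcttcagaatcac
FUT4 replicate 1 (chr11:94545006-94545106, plus strand): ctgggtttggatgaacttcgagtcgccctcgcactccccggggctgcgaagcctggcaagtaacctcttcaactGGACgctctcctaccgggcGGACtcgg
FUT9 replicate 1 (chr6:96203360-96203460, plus strand): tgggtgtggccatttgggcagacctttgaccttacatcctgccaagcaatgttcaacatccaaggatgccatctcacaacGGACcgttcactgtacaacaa
In FUT1, FUT4 and FUT9 the motif stood within 50 nt of the summit, whereas neither FUT2 window held it.

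The next sequences are shown because FUT3, FUT5 and FUT6 are nearly the same in sequence around the summits of their coding peaks. All 3 genes lie on chromosome 19 and are coded on the minus strand. In these aligned stretches of 100 nt the capitals mark the 3 columns at which the genes are not all the same.
FUT3 (chr19:5844073-5844172, minus strand): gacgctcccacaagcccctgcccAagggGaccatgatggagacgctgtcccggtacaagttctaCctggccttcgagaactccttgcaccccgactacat
FUT5 (chr19:5866920-5867019, minus strand): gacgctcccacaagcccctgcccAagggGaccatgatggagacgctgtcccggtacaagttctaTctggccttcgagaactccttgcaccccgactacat
FUT6 (chr19:5831804-5831903, minus strand): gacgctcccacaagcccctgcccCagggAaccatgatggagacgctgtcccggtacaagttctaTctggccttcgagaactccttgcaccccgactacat
Right after the last of those columns, the 3 coding sequences were the same base for base over 229 nt, at chr19:5843879-5844107 in FUT3, chr19:5866726-5866954 in FUT5 and chr19:5831610-5831838 in FUT6. Its sequence is given once, with each GGAC in capitals.
FUT3, FUT5 and FUT6: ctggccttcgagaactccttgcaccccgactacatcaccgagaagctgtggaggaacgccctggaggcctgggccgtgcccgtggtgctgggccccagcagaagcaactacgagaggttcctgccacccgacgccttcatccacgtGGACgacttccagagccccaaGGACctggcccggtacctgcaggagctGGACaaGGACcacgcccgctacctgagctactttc

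An exonic peak, meaning a summit in any annotated exon, was present in 9 of 10 members in replicate 1, where 42.4% of protein-coding genes had one. The same count was 9 of 10 in replicate 2, with 34.1% of protein-coding genes. The 9 genes were the same in both lists, so 9 of 10 members had an exonic peak in both, beside 33.4% of protein-coding genes, and FUT7 had no peak in either. The choice of members used these peaks, so nothing is read from the difference. The whole coding sequence lay in 1 exon in 7 members, namely FUT1, FUT2, FUT3, FUT4, FUT5, FUT6 and FUT9, and 7 of 7 had an exonic peak in both lists, beside 26.3% of the 2240 protein-coding genes of this structure. FUT7 had 2 coding exons with 98.7% of its coding sequence in the larger, FUT10 had 4 and FUT11 had 3.

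Of the 21 member peaks in replicate 1, 19 were exonic and 2 intronic, and of the exonic peaks 13 had their summit in coding sequence, 4 in a 3′ UTR, 1 in a 5′ UTR and 1 in an exon of another transcript than the reference one. All 14 member peaks in replicate 2 were exonic, with 11 in coding sequence, 2 in a 3′ UTR and 1 in a 5′ UTR. A peak overlapped a peak of the other list by at least 1 bp in 12 of 19 exonic member peaks of replicate 1, where 60.2% of all exonic peaks did, and in 13 of 14 of replicate 2, where 95.0% did. By region, in coding sequence 11 of 13 peaks of replicate 1 and 11 of 11 of replicate 2 were shared, beside 62.0% and 95.9% of all summits in coding sequence. In 3′ UTRs the counts were 1 of 4 and 2 of 2, beside 67.3% and 97.1%. In 5′ UTRs they were 0 of 1 and 0 of 1, beside 40.1% and 94.7%. These are counts of few peaks, and no difference between regions was tested.

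Fold enrichment, the ratio of the pileup at the summit to the background of the peak caller, ran from 2.30 to 23.8 over the 19 exonic member peaks of replicate 1, with a median of 7.14 beside 5.30 for all exonic peaks of that list. In replicate 2 it ran from 2.12 to 38.1, with a median of 5.57 beside 4.82. The member peaks were also wide. The median width of a member peak was 456 bp in the first list and 661 bp in the second, beside 314 and 361 bp for all exonic peaks, and the widest spanned 2260 bp of FUT4. The longest annotated exon of any gene at the summit had a median length of 2172 nt in replicate 1 and 2068 nt in replicate 2. For all exonic peaks it was 1406 and 1827 nt. Both member medians lay between the quartiles of all exonic peaks, which were 538 and 3015 nt in replicate 1 and 825 and 3510 nt in replicate 2.

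**Figure D1:**
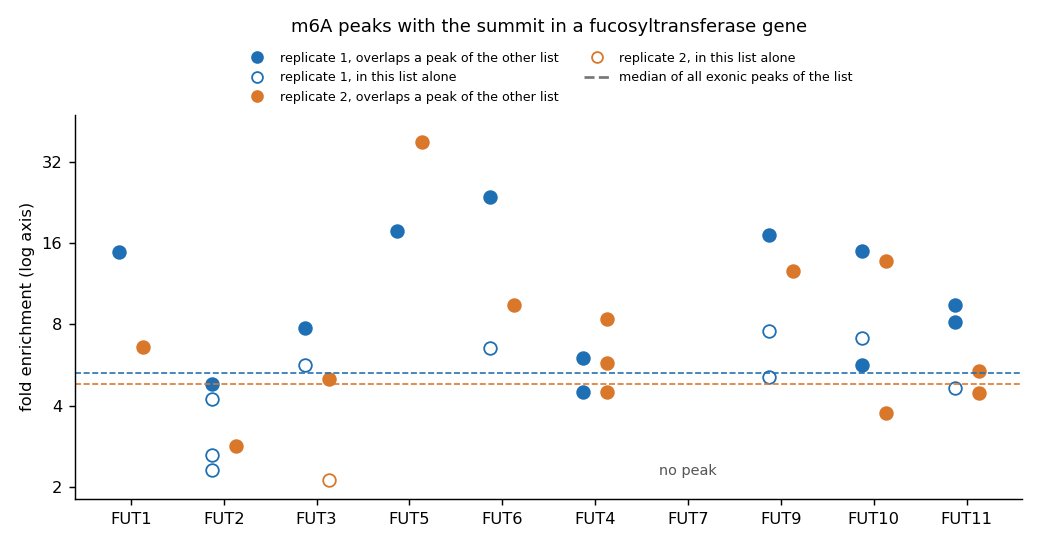
Fold enrichment (log axis) of every peak with its summit in a member gene, by gene, in replicate 1 (blue) and replicate 2 (orange), with filled points for peaks that overlap a peak of the other list, open points for the others, and dashed lines at the median of all exonic peaks of each list. FUT5 in replicate 2 is highest at 38.1, FUT7 has no peak, and all but 1 of the open points are in replicate 1.

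FUT1, the enzyme that makes the H antigen of red cells and contributes to Lewis y, has its whole coding sequence in exon 2 (chr19:48748011-48751283, minus strand, 3273 nt). It had 1 peak per list. In replicate 1 the peak (chr19:48749762-48751170) had a fold enrichment of 14.8 and a −log10 q of 59.4, and in replicate 2 (chr19:48749702-48751171) 6.61 and 32.2. The peaks covered 89.86% and 89.95% of the coding sequence, and their summits were 41 bp apart, 725 and 766 nt past the first coding base. Those summits flank the same GGAC of the window printed above, whose adenosine lies 14 nt downstream of the first and 27 nt upstream of the second.

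FUT2, the secretor enzyme that makes the H antigen of mucosal surfaces, likewise has all of its coding sequence in exon 2 (chr19:48702955-48705951, plus strand, 2997 nt). Its coding peak had a fold enrichment of 4.80 in replicate 1 (chr19:48702977-48704326) and 2.83 in replicate 2 (chr19:48703116-48704076). These were the lowest values of the strongest peak among the 9 members with peaks, in both lists. The −log10 q was nevertheless 49.1 and 28.8, above the medians of 11.6 and 12.9 of all exonic peaks, and the peaks were 1350 and 961 bp wide. The summits lay 477 bp apart within the overlapping peaks, at 755 and 278 nt past the first coding base, so the lists did not place the highest point of FUT2 at the same site. Replicate 1 alone held 2 weak peaks in the 3′ UTR, with fold enrichments of 2.62 and 2.30.

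The coding sequences of FUT1 and FUT2 were identical at 684 of 1029 aligned bases (66.5%), and 0 windows of 150 nt inside their peaks came within 2 mismatches of the other gene. The best-scoring other match of the FUT2 coding peaks in the genome was SEC1P, a pseudogene of the same family beside it on the chromosome, with 87.2% identity over 804 nt (chr19:48680219-48681019). The wider FUT2 peak of replicate 1 also had 344 other matches of at least 100 nt with 90% identity or more, and that of replicate 2 had 0.

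FUT3 is the Lewis gene, whose enzyme acts on both chain types and makes Lewis a and Lewis b. Its coding exon 3 (chr19:5842888-5844851, minus strand, 1964 nt) was covered nearly from end to end by a peak in replicate 1 (chr19:5842935-5844868) and in replicate 2 (chr19:5842925-5844750). Fold enrichment was 7.74 in replicate 1 and 5.03 in replicate 2, and −log10 q was 61.7 and 47.9. The summits lay 1 bp apart, 743 and 742 nt past the first coding base. The peaks held 100% and 91.8% of the coding sequence and all 11 of its GGAC motifs. Replicate 2 also held a weak 5′ UTR peak of 205 bp with a fold enrichment of 2.12 (chr19:5846375-5846579), the lowest of that list's member peaks.

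FUT6, which makes Lewis x and sialyl Lewis x structures on plasma proteins, had the highest fold enrichment of the members in replicate 1. Its peaks covered the whole coding sequence in exon 3 (chr19:5830408-5832579, minus strand, 2172 nt) in both lists, at chr19:5830946-5832594 and chr19:5830975-5832587. Fold enrichment was 23.8 in replicate 1, rank 32 of the whole list, and 9.44 in replicate 2, rank 1275. The log2 ratio of replicate 1 to replicate 2 was 1.33, higher than in 94.9% of all 11741 paired exonic peaks. The summits were 22 bp apart, at 856 and 878 nt past the first coding base, and all 9 GGAC motifs of the coding sequence lay inside both peaks.

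FUT5, a close relative whose enzyme can make Lewis x structures but whose role in the body is little known, showed the reverse order. Its peak had a fold enrichment of 17.8 in replicate 1 (chr19:5866664-5867192) and 38.1 in replicate 2 (chr19:5866573-5867201), and the second is rank 1 of the list. The log2 ratio of replicate 1 to replicate 2 was −1.10, at percentile 0.528 of all paired exonic peaks. Unlike those of FUT3 and FUT6, the FUT5 peaks were narrow, at 529 and 629 bp, and covered 47.2% and 53.3% of the coding sequence in exon 2 (chr19:5865826-5867737, minus strand, 1912 nt). The summits were 4 bp apart, at 883 and 879 nt past the first coding base. The same bases are also an exon of ENSG00000267740 on the same strand, so the gene of this peak is uncertain even apart from its paralogues.

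The 3 paralogues were aligned to see what a read could tell apart. FUT3 and FUT5 were identical at 1017 of 1083 aligned coding bases (93.9%), FUT5 and FUT6 at 1005 of 1077 (93.3%), and FUT3 and FUT6 at 971 of 1071 (90.7%). Differences were unevenly spread, and the run of 229 identical columns printed above was the longest, before 1 of 136. It held 6 of 6 summits of the 3 genes, at alignment columns 783 and 782 of 1122 in FUT3, 884 and 880 in FUT5, and 899 and 921 in FUT6. The run therefore contained the highest point of every coding peak of FUT3, FUT5 and FUT6 in either list. It also held 4 GGAC motifs that the genes share. The FUT3 summits lay near its start at column 772. A window of 150 nt around them had 1 mismatch to FUT5 and 3 to FUT6. At the FUT5 and FUT6 summits such a window had 0 mismatches to either paralogue.

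The genes differed in how much of the peak lay on sequence nearly shared with a paralogue. Windows of 150 nt, the length of 1 read in the study's paired-end sequencing, were slid along each peak and compared with the other 2 genes. What the second read of a pair could tell apart was not counted. Within 2 mismatches of a paralogue were 380 of 380 windows of the FUT5 peak in replicate 1 and 394 of 480 in replicate 2. The share was 463 of 1785 windows in FUT3 and 257 of 1500 in FUT6 in replicate 1, and 463 of 1677 and 257 of 1464 in replicate 2. The peak of FUT5 in replicate 1 lay wholly on sequence that FUT3 or FUT6 nearly share, as did 82.1% of its windows in replicate 2. By contrast, most windows of the FUT3 and FUT6 peaks were more than 2 mismatches from either paralogue. Over the FUT5 coding exon as a whole only 456 of 1763 windows (25.9%) came this close to a paralogue. Of the 1383 windows not wholly inside the replicate 1 peak, 76 did, a count that includes windows lying across its edge. No other FUT5 peak was listed.

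Placed against the genome, the FUT5 peak of replicate 1 matched FUT3 at 99.2% of 529 nt (chr19:5843817-5844345), and that of replicate 2 at 98.9% of 629 nt. The best-scoring match of the FUT3 peaks was to FUT5, at 85.4% of 1577 nt in replicate 1. Of 187 matches of at least 100 nt that this peak had elsewhere, 1 had 90% identity or more. For the FUT3 coding peak of replicate 2 it was 14 of 888. The best-scoring match of the FUT6 coding peaks was also to FUT5, at 84.2% of 1597 nt in replicate 1. How reads that fit several of these genes were placed or counted is not given in the sources used here, and its part in the fold enrichment of FUT5, or in the opposite order of FUT5 and FUT6 between the lists, was not tested.

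**Figure D2:**
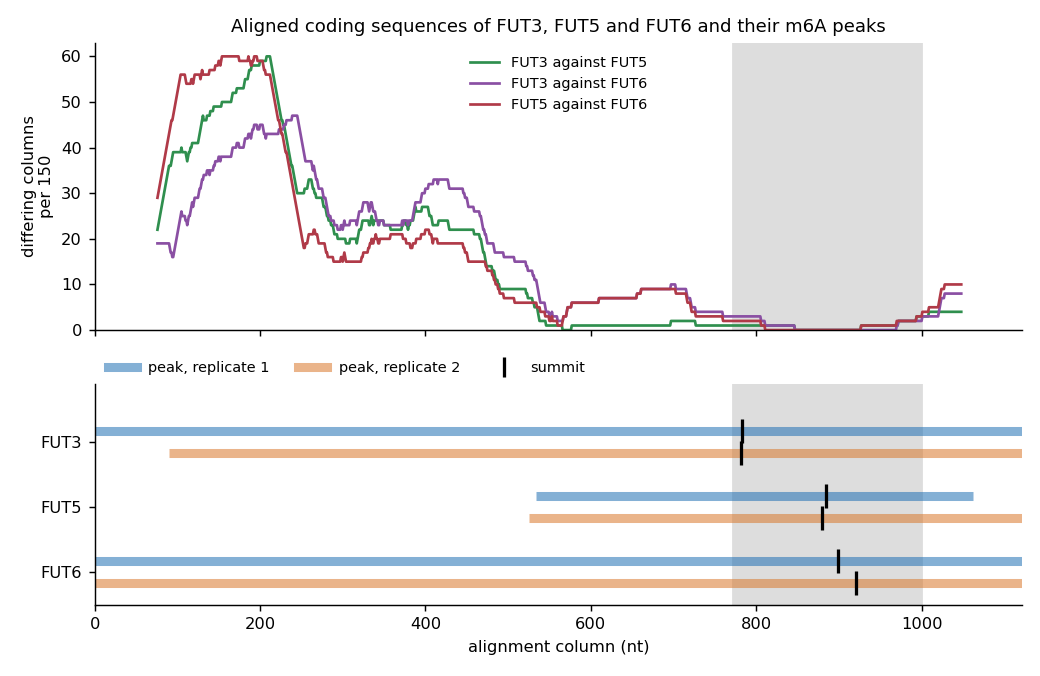
Upper panel, differing columns per 150 columns along the aligned coding sequences for each pair of FUT3, FUT5 and FUT6; lower panel, the coding part of each gene's peak in replicate 1 (blue) and replicate 2 (orange) with black ticks at the summits, against the same alignment column in nt. The grey band marks the 229 columns that are identical in all 3 genes, and 6 of 6 summits lie inside it.

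FUT4, the myeloid-type enzyme that makes Lewis x (CD15), is a gene of 1 exon (chr11:94543921-94549895, plus strand, 5975 nt). A peak over its coding sequence had a fold enrichment of 6.03 in replicate 1 (chr11:94544206-94546465) and 5.77 in replicate 2 (chr11:94544440-94545826). The summits were 2 bp apart, at 922 and 924 nt past the first coding base. In replicate 2 a separate peak stood 587 nt past the stop codon (chr11:94545986-94546535), with a fold enrichment of 8.39, whereas in replicate 1 the single peak of 2260 bp reached across both. That place is also an exon of PIWIL4-AS1 on the opposite strand, and the lists carry no strand. A further 3′ UTR peak far from the stop codon was present in both lists with nearly equal fold enrichment, 4.50 in replicate 1 (chr11:94549270-94549558) and 4.48 in replicate 2 (chr11:94549254-94549532), the only 3′ UTR pair among the members that was paired between the lists.

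FUT7, which makes the sialyl Lewis x of leukocytes needed for binding to selectins, had no peak with its summit in the gene body (chr9:137030174-137032088, minus strand) in either list. Its coding sequence had 66.6% GC and held 3 GGAC motifs, against 2 in FUT9, which had peaks, and 7 to 13 in the other members. Whether FUT7 RNA was present in these cells cannot be read from the lists.

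FUT9, the enzyme that makes Lewis x in brain and stomach, has a coding sequence of 40.7% GC with 2 GGAC motifs in 1077 nt, the lowest values of the members. FUT10 followed with 46.7% GC, and the others had 59.6% to 71.0%. The coding peak of FUT9 was among the strongest. In replicate 1 it had a fold enrichment of 17.2 (chr6:96203218-96204185) and in replicate 2 of 12.7 (chr6:96203229-96204251), with a geometric mean of 14.8 that ranked 187 of 11741 paired exonic peaks. Both summits lay early in the coding sequence, 254 and 237 nt past its first base, whereas those of the shared coding peaks of FUT1, FUT3, FUT5 and FUT6 lay at 725 to 883 nt. Early summits were also found in FUT2 in replicate 2 (278 nt), in the weaker FUT10 pair (319 and 227 nt) and in FUT11 in replicate 1 (304 nt). Both GGAC motifs of the coding sequence were inside both peaks, and the nearer stood 32 nt downstream of the summit in replicate 1. The 3′ UTR of 11377 nt had 1 peak, which was listed in replicate 1 only, at a fold enrichment of 5.12 and 8634 nt past the stop codon.

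**Figure D3:**
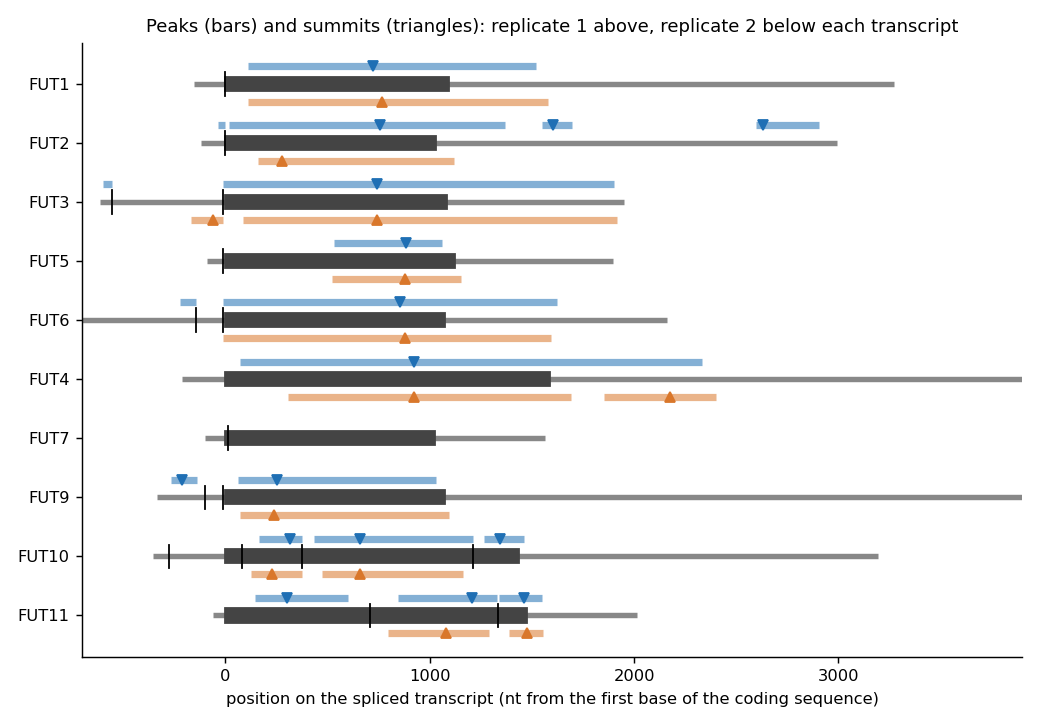
Spliced reference transcripts of the 10 members by position in nt from the first coding base, with coding sequence as dark boxes, exon junctions as vertical lines, and peaks as bars with triangles at the summits (replicate 1 above in blue, replicate 2 below in orange). Peaks that cover an exon only in part are drawn over that part, and the axis ends before the distal 3′ UTR peaks of FUT4 and FUT9. The coding peaks of FUT1, FUT3, FUT6 and FUT9 cover at least 89.86% of the coding sequence in both lists, and FUT7 has no bar.

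FUT10 and FUT11 are relatives of the enzymes above with several coding exons, and less is settled about their substrates. In FUT11 (chr10:73772276-73780251, plus strand) the peak in the middle coding exon had a fold enrichment of 9.44 in replicate 1 (chr10:73773328-73773809) and 4.46 in replicate 2 (chr10:73773280-73773771), with summits 124 bp apart. A peak at the end of the coding sequence had 8.14 (chr10:73775546-73775758) and 5.38 (chr10:73775597-73775760), with summits 16 and 1 nt before the stop codon. Another coding peak, in exon 1, was in replicate 1 alone at 4.63 and overlaps an exon of ENSG00000279689 on the opposite strand. FUT11 is thus the only member with a shared summit within 20 nt of its stop codon.

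FUT10 lies on chromosome 8 (33370824 to 33473146, minus strand) and had its main peak in its largest coding exon, exon 4 of 836 nt. Fold enrichment was 15.0 in replicate 1 and 13.8 in replicate 2, with summits 2 bp apart and a −log10 q of 49.1 and 53.7. The lists differed here by only 0.12 on the log2 scale. A second peak in an upstream coding exon of 295 nt had 5.64 and 3.74, with summits 92 bp apart. Another, in the last coding exon, was called in replicate 1 alone, at 7.14. Peaks of FUT9, FUT10 and FUT11 had no other match of 100 nt or more in the genome search, which kept strong matches only.

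The replicates could be compared in 12 pairs of overlapping member peaks. Fold enrichment was higher in replicate 1 in 11 of 12 pairs (91.7%), beside 80.0% of all 11741 exonic pairs, and the median log2 ratio was 0.60 beside 0.43. FUT5 was the exception. Summits of a pair were a median of 19.5 bp apart, beside 26.0 bp, with FUT2 the farthest at 477 bp. Ranked by the geometric mean of both lists, FUT5 (26.0, rank 1), FUT6 (15.0, rank 169), FUT9 (14.8, rank 187) and FUT10 (14.4, rank 219) came first, followed by FUT1 (9.90, rank 1313). FUT6, FUT9 and FUT10 were closer to each other than the lists were for FUT6, so these 3 do not differ beyond the spread between the lists. The strongest shared peak had its replicate 1 summit in coding sequence in 9 of 9 members, beside 415 of 589 genes with 1 coding exon (70.5%) and 3445 of 6640 protein-coding genes (51.9%). That count rests on peaks that were each other's best overlap. It leaves out the 3′ UTR peak of FUT4 in replicate 2, at 8.39 stronger than the coding peak of that list at 5.77.

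**Figure D4:**
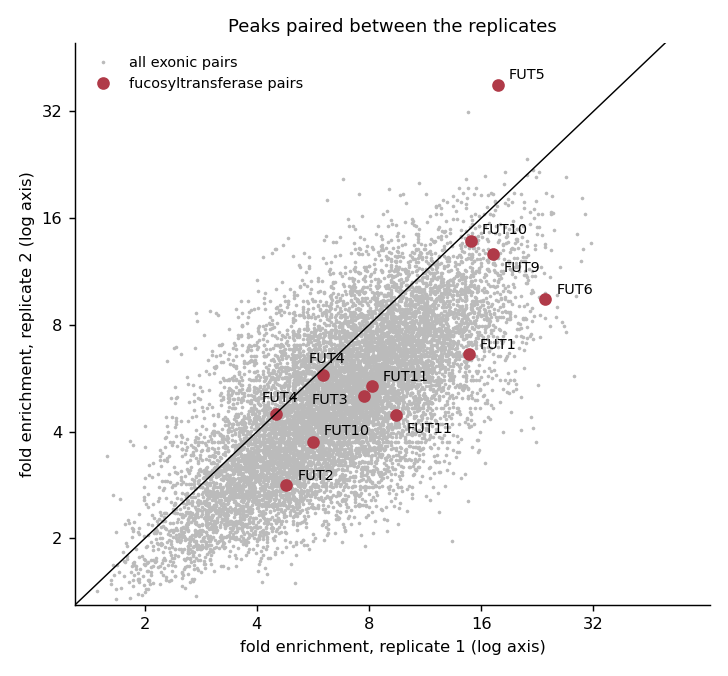
Fold enrichment in replicate 1 (x axis, log) against replicate 2 (y axis, log) for all 11741 pairs of overlapping exonic peaks (grey) and the 12 pairs in member genes (red, labelled), with the line of equal values. FUT5 lies above the line at 17.8 and 38.1, while 11 of 12 member pairs lie below it or almost on it.

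The motif GGAC was searched up to 50 nt to each side of the summit, on the gene's own strand. It was found at 13 of 19 exonic summits of replicate 1, where 49.9% of the exonic summits used for comparison had it. In replicate 2 it was found at 8 of 14, where 51.8% had it. The comparison used 19133 of 20134 exonic summits in replicate 1 and 12461 of 13113 in replicate 2. Summits with exons on both strands, or off the main chromosomes, were left out of it but not out of the member counts. GGACT, which contains GGAC, stood at 5 of 19 and 2 of 14 summits, beside 17.8% and 19.1% of the comparison summits, and GAAC at 8 of 19 and 4 of 14, beside 31.5% and 33.9%. The broader consensus DRACH (where H stands for any base but G, R for a purine, and D for any base but C), which overlaps all of these, stood at 16 of 19 (84.2%) and 11 of 14 (78.6%), beside 86.1% and 89.2%. FUT2 was the only member with peaks but without GGAC at any exonic summit. Over whole coding sequences, all GGAC motifs of FUT1 (10), FUT2 (7), FUT3 (11), FUT6 (9) and FUT9 (2) lay inside the peaks of both lists, against 8 of 11 in FUT5, 11 of 13 in FUT4, 4 of 7 in FUT10, 4 of 13 in FUT11 and 0 of 3 in FUT7. A motif inside a wide peak is a description and does not mark a modified base.

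Replicate 1 also held 4 short peaks near transcript starts. They are named here after their values were seen. FUT2 had 1 of 130 bp, FUT3 of 140 bp, FUT6 of 135 bp and FUT9 of 128 bp, with fold enrichments of 4.23, 5.68, 6.56 and 7.56. Their summits were 71, 67, 57 and 116 nt downstream of the nearest annotated transcript start, and those of FUT2 and FUT3 fell in an intron, in peaks that also overlapped an exon. These 4 did not overlap a peak of replicate 2. Of all member peaks of replicate 1 with the summit up to 150 nt downstream of an annotated transcript start, which add 2 wider peaks of FUT11, 1 of 6 was shared, beside 34.5% of such peaks in all protein-coding genes.

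Of other genes of the pathway, 17 of 27 had an exonic peak in replicate 1, 14 in replicate 2 and 14 in both, beside the 42.4%, 34.1% and 33.4% of protein-coding genes given above. For the synthesis of precursor chains and of GDP-fucose it was 8 of 15 in both lists, for sialylation, sulfation, branching and competing ends 3 of 9, and for other fucosyltransferases 3 of 3. The strongest shared peaks were those of FUT8, which adds core fucose to N-glycans (11.4 in replicate 1 and 8.22 in replicate 2), GCNT3, which branches mucin O-glycans (13.1 and 6.59), and B3GNT5, which starts lacto-series glycolipids (11.1 and 5.94). GCNT1 followed with 7.22 and 8.24, B3GALT5, which makes the type 1 chain that FUT3 acts on, with 6.72 and 7.01, and POFUT2, an O-fucosyltransferase of thrombospondin repeats, with 9.19 and 5.02. The enzymes that make GDP-fucose from GDP-mannose, GMDS and GFUS, and the salvage kinase FCSK had no exonic peak in either list. The median geometric mean of the strongest shared peak was 6.10 over the 14 pathway genes with one, 9.90 over the 9 members, 7.49 over 589 genes with 1 coding exon and 6.52 over 6640 protein-coding genes.

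Just outside the members' bodies, within 2000 bp, replicate 1 held a peak 1629 bp past FUT2 with a fold enrichment of 3.45 and a peak 382 bp before FUT11 with 2.76, the latter in an exon of SEC24C. They were not counted.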

How the data were processed

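OE-19 RNA was profiled in 2 m6A immunoprecipitation and 2 input samples, and groups were taken from the labels. Per the study's methods, total RNA was fragmented before immunoprecipitation, whereas the labels describe UV-fixed lysates. Per the labels the authors used fastp, HISAT2, MACS2 and hg38, whereas the methods name Tophat2 and MACS2 at default settings. Versions, and whether input served as control, are not given in the sources used here. The values deposited by the authors are a fold enrichment (a ratio over local background), a −log10 p-value and a −log10 q-value, a summit and a score, which was not used. The lists end at a q of 0.0491 and 0.0497. The lists hold no read numbers, so depth is unknown and no interval was computed.

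Summits were placed on GENCODE version 44 (1-based, hg38), with regions on 1 reference transcript per gene, the motif windows on the strand of the gene, and sharing by an overlap of at least 1 bp. Paired peaks were each other's best overlap. Paralogous coding sequences were aligned with MAFFT 7.526, and peaks were searched against the genome with blastn 2.17.0, with low-complexity sequence masked. Only hits of at least 100 nt on the main chromosomes that passed a strict E-value cut were counted, so weaker matches were not seen. The best-scoring hit was the one with the largest product of identity and length. Scripts ran in Python 3.11.15 with pysam 0.24.0, numpy 2.4.6 and, for plots, matplotlib 3.10.9, and were tested on simulated data. Members, gene lists and alternatives were chosen with earlier results of these data known. The genes named were all members, genes whose exons overlap their summits, and the 6 pathway genes whose shared exonic peaks ranked highest by geometric mean. SEC1P and SEC24C were named after their values were seen, as a sequence match and a neighbour. Genes of the other pathway and marker lists are named only by whether a peak was listed. No test was run, since the members were chosen on these values. Alternatives were stricter q, a fold enrichment of 5 or more, peak midpoints, equal list sizes, other overlap rules and motif windows, and each replicate left out.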

Additional observations from a re-analysis of the deposited data

How the results depend on the processing

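Of 56 alternative values of the main counts and medians, 50 stayed near the main value and 6 moved. Near meant within a factor of 1.5 for counts, or within 1.11, the SD between the replicates, for medians of fold enrichment. With equal list sizes replicate 2 kept all of its 19318 peaks, so its own counts of peaks and motifs and its median could not move. With only peaks of a fold enrichment of 5 or more, the exonic member peaks of replicate 2 fell from 14 to 9 and their median fold enrichment was 8.39 in place of 5.57, by construction of that setting. The motif counts depended on the window. GGAC within 25 nt stood at 5 summits of replicate 1 and 4 of replicate 2, against 13 and 8 within 50 nt, and within 100 nt it stood at 13 summits of replicate 2. Around the peak midpoint in place of the summit, 6 peaks of replicate 1 had it. The share over all exonic peaks was computed only within 50 nt of the summit. The counts at the other settings therefore have no such share beside them, and nothing is read from them about the members. The number of members with an exonic peak was 9 without replicate 1 and 9 without replicate 2. No paired analysis was possible because no result comes from a test and only the immunoprecipitation group was analysed. The fold enrichment of a member depended on the list, from 9.44 to 23.8 in FUT6 and from 17.8 to 38.1 in FUT5. Peak lists without read numbers or strand limit which gene a peak can be given to. So does the sequence that FUT3, FUT5 and FUT6 nearly share around their summits, most of all for the FUT5 peak. Most windows of the FUT3 and FUT6 peaks were more than 2 mismatches from either paralogue.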
